A study of Mus musculus with 12 samples.

Results

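The collagen chain genes were examined in liver RNA-seq of 12 mice. Members were the protein-coding genes whose symbol in the GENCODE M21 annotation of GRCm38 (mm10) begins with Col, a number, a and a second number. The rule found 45 genes, all of them present among the 47729 gene identifiers of the count files, of 21620 protein-coding genes in the files. Of the 45, 44 encode collagen chains. The remaining gene, Col4a3bp, matches by its first letters only and encodes CERT, a ceramide transfer protein, so it is given apart. The chains were grouped as fibrillar (11 genes), basement membrane (8 genes, type IV with types XV and XVIII) and other (25 genes).

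The mice were male C57BL/6, their livers were taken at 9 weeks of age, and they fell into 3 groups of 4. Healthy mice (labelled Naive_vehicle, mouse model WT) received vehicle only, from week 6 to week 9, without streptozotocin or the high fat diet. STAM-vehicle mice received streptozotocin on day 2 after birth, which destroys pancreatic islets, a high fat diet from week 4 and vehicle from week 6 to week 9. STAM-I-BET151 mice had the same streptozotocin and diet and were given 10 mg/kg I-BET151, a small-molecule inhibitor of the BET bromodomain proteins, once a day by mouth over the same weeks. No group had streptozotocin or the diet alone, so the effects of these cannot be told apart in the STAM groups. The study compared STAM-vehicle with healthy livers for the disease and STAM-I-BET151 with STAM-vehicle livers for the treatment. A comparison of STAM-I-BET151 with healthy livers was added here. The p-values set a difference between groups against the spread between mice, estimated over all 3 groups together.

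Collagens are extracellular proteins built from chains that wind around each other in a helix. Fibrillar collagens (types I, III, V and others) form the fibres that stain as scar in a fibrotic liver, basement membrane collagens form sheets under epithelia and endothelia, and the other classes bind to fibrils, form beaded filaments or networks, or span the cell membrane. In injured liver, hepatic stellate cells and portal fibroblasts that turn into myofibroblasts are known as the main source of fibrillar collagen. Whole liver was sequenced here, so fewer or more cells of a type and less or more RNA per cell cannot be told apart.

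Levels are given as CPM, the counts on a gene per 1000000 counts of a library whose size was first adjusted by TMM, a scaling for differences in RNA composition. A gene was called where its p-value, adjusted by the Benjamini-Hochberg method over all genes tested, met the threshold given. Total counts on genes were between 34711229 and 53365596 per mouse. The library of I-BET151 mouse 3 stood apart from the other 11. Its TMM factor was 1.609 against 0.7696 to 1.108, mitochondrial genes took 2.71% of its counts against 4.51% to 7.30%, and its 10 most abundant genes took 7.95% against 13.5% to 18%. The study left out 1 I-BET151 sample without naming it. All 4 were kept here, and values without mouse 3 are given where they matter.

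Promoter sequence was read from the RefSeq table for GRCm38.p6, which held an entry for 35 of the 45 genes. Col1a1, Col5a2 and Col22a1, which were called in the results below, had no entry. Shown here are the 250 bases before the annotated start of Col3a1, Col5a1, Col5a3 and Col6a5, chains that are set beside each other in the results, and a stretch of 123 bases in the window of Col1a2 that overlaps no annotated exon. That stretch lies downstream of the start of Col1a2 in GENCODE M21, at position 4504814. Each is written 5′ to 3′ on the strand of its gene. Capitals mark matches on either strand to the motif CCAAT, to the GC box, spelled GGGCGG, or to the motif TATAAA.
Col3a1 (chr1:45311288-45311537, plus strand): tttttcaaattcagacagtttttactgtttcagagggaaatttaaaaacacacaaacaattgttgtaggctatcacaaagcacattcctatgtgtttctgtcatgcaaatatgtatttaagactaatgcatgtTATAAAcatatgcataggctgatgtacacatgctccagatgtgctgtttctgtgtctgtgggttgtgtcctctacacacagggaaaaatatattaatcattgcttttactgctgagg
Col5a1 (chr2:27886175-27886424, plus strand): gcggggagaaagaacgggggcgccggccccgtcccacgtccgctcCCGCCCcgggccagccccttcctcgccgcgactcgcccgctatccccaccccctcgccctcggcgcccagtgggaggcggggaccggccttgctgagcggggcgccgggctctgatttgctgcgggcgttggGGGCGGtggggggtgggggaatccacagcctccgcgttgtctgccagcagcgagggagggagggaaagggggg
Col5a3 (chr9:20815068-20815317, minus strand): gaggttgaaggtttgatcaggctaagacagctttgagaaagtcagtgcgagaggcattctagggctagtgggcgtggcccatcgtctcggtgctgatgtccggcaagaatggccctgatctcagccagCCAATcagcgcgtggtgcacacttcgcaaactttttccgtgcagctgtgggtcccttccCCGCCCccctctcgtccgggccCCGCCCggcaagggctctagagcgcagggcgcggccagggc
Col6a5 (chr9:105960644-105960893, minus strand): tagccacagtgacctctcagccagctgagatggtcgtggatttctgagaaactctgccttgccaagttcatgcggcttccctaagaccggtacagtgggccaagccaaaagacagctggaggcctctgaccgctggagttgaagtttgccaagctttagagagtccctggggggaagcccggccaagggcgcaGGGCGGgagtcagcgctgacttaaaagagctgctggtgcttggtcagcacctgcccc
Col1a2 (chr6:4505370-4505492, plus strand): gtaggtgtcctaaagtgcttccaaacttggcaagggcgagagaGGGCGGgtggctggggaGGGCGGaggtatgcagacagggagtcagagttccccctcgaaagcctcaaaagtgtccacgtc

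Of these, only Col3a1 held TATAAA, and it held neither of the other motifs. Col5a1, Col5a3 and Col1a2 each held 2 GC boxes, Col6a5 held 1, and only Col5a3 held CCAAT. The window of Col4a2, not shown, held 1 CCAAT and 2 GC boxes. Over the 32851 windows of 250 bases in the table, 33.8% held CCAAT, 32.7% a GC box and 12.4% TATAAA, and a match is a description of the letters only.

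In every group the collagen mRNA of the liver was dominated by Col18a1, the chain of collagen XVIII, a basement membrane proteoglycan whose end fragment is endostatin. Col18a1 (chr10:77052178-77166548, minus strand) had 1131, 1097, 1337 and 1123 CPM in the 4 healthy mice, 1111, 1201, 858 and 1157 in the vehicle mice, and 1161, 1358, 963 and 1514 in the I-BET151 mice. These ranges overlapped in every pair of groups. For vehicle against healthy the quasi-likelihood fit of edgeR gave a log2 fold change of -0.12 ± 0.20 (SE), with a 95% interval from -0.54 to 0.31 and adjusted p = 0.777. For I-BET151 against vehicle it was 0.21, with an interval from -0.22 to 0.63.

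Col18a1 made up between 74.9% and 81.0% of all collagen chain CPM in healthy mice, between 65.4% and 73.0% in vehicle mice and between 54.4% and 76.3% in I-BET151 mice. The healthy and vehicle ranges did not overlap. The sum of the chains without Col18a1 was 328 ± 35.9 CPM (mean ± SD, n = 4) in healthy mice and 464 ± 44.2 in vehicle mice. It was 556 ± 171 in I-BET151 mice, and 472 ± 43.9 over the 3 I-BET151 mice other than mouse 3, where it was 806.

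Per length, in CPM per kb of merged exon averaged over the 12 mice, Col18a1 stood at 166. Next came Col4a1 at 9.54 and Col4a2 at 9.37, the main basement membrane chains, then Col5a3 at 7.53 and Col14a1, a chain associated with fibrils, at 7.18. The chains of the fibres of scar were lower, with 2.91 for Col3a1, 2.08 for Col1a2 and 1.97 for Col1a1. Divided by the longest protein-coding transcript instead, an alternative added after the data were seen, the first 5 places kept their order, and Col3a1 stood at 5.14, Col1a2 at 4.83 and Col1a1 at 2.18.

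**Figure D1:**
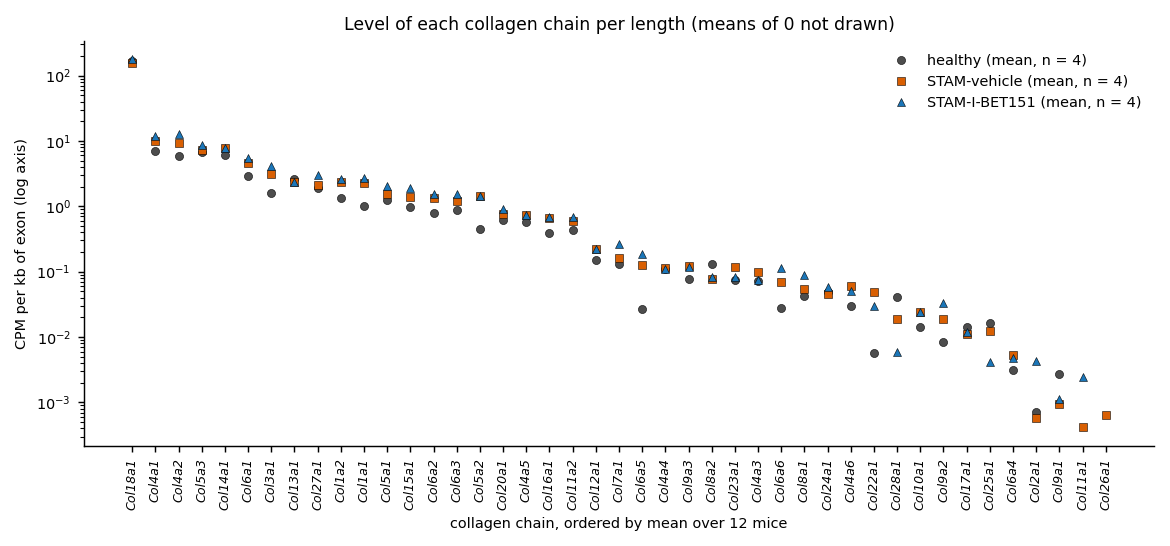
Mean level of each collagen chain in CPM per kb of exon (log axis) in healthy, STAM-vehicle and STAM-I-BET151 livers, 4 mice each, ordered by the mean over all 12 mice, with means of 0 not drawn. Col18a1 lies over 10 times above the next chain in all 3 groups, while Col5a2, Col6a5 and Col22a1 show the widest gaps between healthy and both STAM groups.

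At the other end, 11 chains had too few counts to be tested. Col19a1 had no count in any mouse, which allows a level of up to 0.0537 to 0.0903 CPM per library (3 counts, counting error only). Col26a1, Col9a1, Col2a1 and Col11a1 had at most 3 counts in any mouse. Of these, Col2a1, Col9a1 and Col11a1 are chains known from cartilage. The other untested chains were Col6a4, Col9a2, Col10a1, Col17a1, Col25a1 and Col28a1, each with at most 13 counts per mouse. The remaining 33 chains, 9 fibrillar, 8 basement membrane and 16 other, passed the filter on low counts and were tested with all 16823 genes that passed.

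In vehicle livers, 5 of the 33 tested chains were higher than in healthy livers and 0 were lower, with 0.05 as the threshold for the adjusted p. They were the fibrillar chains Col1a1 and Col5a2, the basement membrane chain Col4a2, the beaded filament chain Col6a5 and the fibril-associated chain Col22a1. Over all genes tested, 7.10% were called in this comparison, 5.72% higher and 1.38% lower, against 15.2% of the tested chains called higher. Col6a5 and Col22a1 passed the filter on low counts through the STAM mice, in which they were higher. Where every mouse had to have at least 10 counts, neither was tested, and 3 of 27 tested chains were called, the other 3 of the 5. The share of all genes called with that filter was not computed. The fitted log2 fold change was above 0 for 29 of the 33 chains, against 50.9% of all genes, and its median was 0.51 against 0.0089 over all genes.

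**Figure D2:**
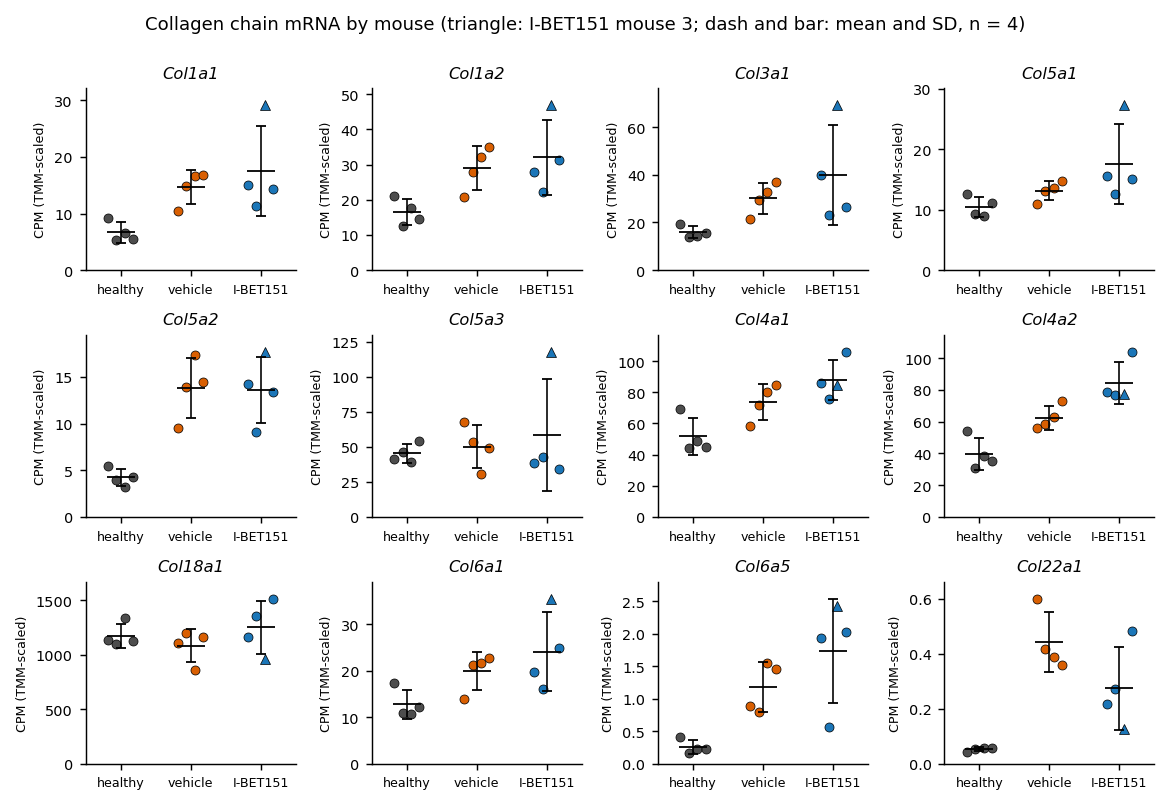
Level of 12 collagen chains in CPM (linear axes from 0) in each of the 12 mice, with the mean and SD of each group as a dash and bar. The 4 vehicle mice lie above the 4 healthy mice for Col1a1, Col5a2, Col4a2, Col6a5, Col22a1 and Col3a1, and the triangle, I-BET151 mouse 3, is the highest of the 12 for Col1a1, Col1a2, Col3a1, Col5a1, Col5a2, Col5a3, Col6a1 and Col6a5.

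Col1a1 (chr11:94936224-94953042, plus strand) encodes the main chain of type I collagen, the chief protein of scar. It had 9.21, 5.30, 6.57 and 5.52 CPM in healthy mice, 10.4, 14.9, 16.7 and 16.8 in vehicle mice, and 15.1, 11.3, 29.2 and 14.4 in I-BET151 mice. Every vehicle mouse and every I-BET151 mouse was above every healthy mouse, while vehicle and I-BET151 mice overlapped. Col1a1 rose 2.21-fold in vehicle, a log2 fold change of 1.14 ± 0.28 (SE) (adjusted p = 0.0268, edgeR). Of 12 leave-one-out fits, each lacking 1 mouse, 6 kept the call, with adjusted p between 0.00254 and 0.0871.

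Col5a2 (chr1:45374321-45503282, minus strand) encodes a chain of type V collagen, which lies inside type I fibrils and limits their width. It had 5.49, 3.97, 3.26 and 4.23 CPM in healthy mice, 9.57, 13.9, 17.4 and 14.5 in vehicle mice, and 14.2, 9.07, 17.7 and 13.4 in I-BET151 mice. The lowest vehicle and I-BET151 mice were both well above the highest healthy mouse. Col5a2 rose 3.26-fold in vehicle (log2 1.70 ± 0.23, adjusted p = 0.000935 in edgeR), and the call was kept in all 12 fits without 1 mouse.

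The partners of these chains lay just outside the threshold or further away. Col1a2, the second chain of type I collagen, had 21.1, 12.6, 17.8 and 14.5 CPM in healthy mice and 20.7, 27.9, 32.1 and 35.1 in vehicle mice. Vehicle mouse 1 lay within the healthy range, the log2 fold change was 0.81 and the adjusted p was 0.0534. Col3a1, the chain of type III collagen, had 19.5, 14, 14.5 and 15.4 CPM in healthy mice and 21.6, 29.2, 32.9 and 36.9 in vehicle mice. Its vehicle mice were all above its healthy mice, with a log2 fold change of 0.93 and an adjusted p of 0.0704. The sum of Col1a1, Col1a2 and Col3a1 was 39.0 ± 7.74 CPM in healthy mice and 73.8 ± 15.6 in vehicle mice.

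Neither of the other type V chains was called. Col5a1 had 12.5, 9.24, 8.98 and 11.1 CPM in healthy mice and 11, 13.0, 13.6 and 14.8 in vehicle mice, with overlapping ranges and a log2 fold change of 0.32 (95% interval -0.14 to 0.79, adjusted p = 0.408). Col5a3 had 41.2, 46.7, 39.5 and 54.2 CPM in healthy mice and 67.6, 53.4, 30.6 and 49.0 in vehicle mice, with a log2 fold change of 0.14 (-0.61 to 0.89).

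The count ratio of partner chains within a library does not depend on how libraries are scaled. It was computed for 5 pairs chosen after their values were seen, and is given without a test. The ratio of Col5a2 to Col5a1 counts was 0.440, 0.430, 0.362 and 0.380 in healthy mice. It was 0.867, 1.07, 1.28 and 0.977 in vehicle mice and 0.908, 0.727, 0.647 and 0.896 in I-BET151 mice, so both STAM groups were clear of the healthy range and the 2 STAM groups overlapped. The ratio of Col1a2 to Col1a1 was between 2.29 and 2.71 in healthy mice and lower, between 1.87 and 2.08, in vehicle mice. It was between 1.61 and 2.18 in I-BET151 mice.

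For the basement membrane pair, the ratio of Col4a2 to Col4a1 was between 0.689 and 0.793 in healthy mice, between 0.781 and 0.955 in vehicle mice and between 0.911 and 1.02 in I-BET151 mice. The healthy and I-BET151 ranges did not overlap, and the vehicle range overlapped both. For the beaded filament pair, the ratio of Col6a2 to Col6a1 was between 0.480 and 0.555 in healthy mice, between 0.560 and 0.581 in vehicle mice and between 0.474 and 0.594 in I-BET151 mice. For the fibrillar pair of types III and I, the ratio of Col3a1 to Col1a1 overlapped in all pairs of groups, with means of 2.44 ± 0.328, 2.05 ± 0.108 and 2.23 ± 0.351.

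**Figure D3:**
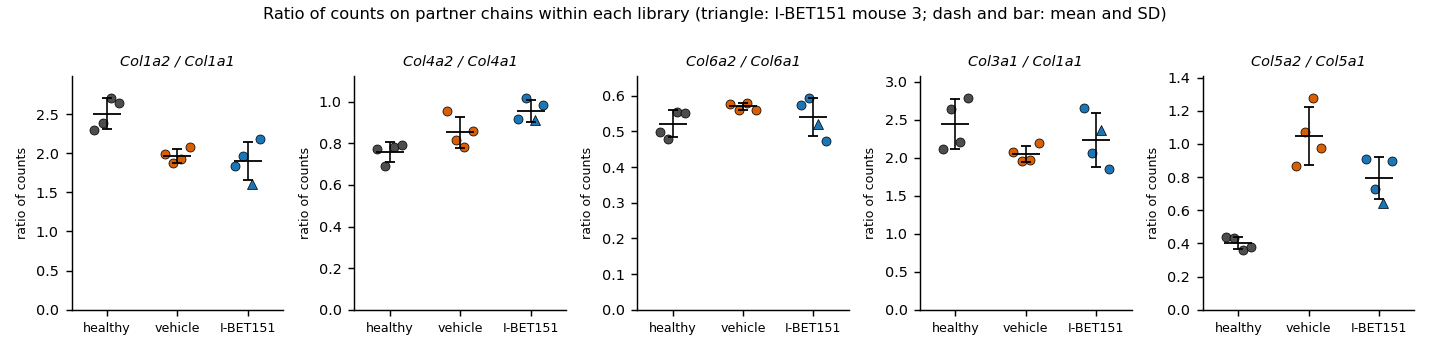
Ratio of counts on 5 pairs of collagen chains in each library (linear axes from 0), with the mean and SD of each group of 4 mice. The Col5a2 to Col5a1 ratio lies at 0.362 to 0.440 in healthy mice and at 0.647 to 1.28 in the 8 STAM mice, whereas the Col3a1 to Col1a1 ratio overlaps between groups.

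Col4a2 (chr8:11312805-11449287, plus strand) and Col4a1 (chr8:11198423-11312826, minus strand) encode the chains of the ubiquitous type IV collagen of basement membranes and lie head to head, with 22 bases of overlap at their starts. Col4a2 had 53.8, 30.6, 38.3 and 35.4 CPM in healthy mice, 55.7, 58.6, 62.8 and 72.7 in vehicle mice, and 78.7, 76.9, 77.3 and 104 in I-BET151 mice. The 3 groups did not overlap, in the order healthy, vehicle, I-BET151, although healthy mouse 1 was close to the lowest vehicle mouse. Col4a2 rose 1.58-fold in vehicle (log2 0.66 ± 0.17, adjusted p = 0.0368 in edgeR), a call kept in 6 of the 12 fits without 1 mouse. Over those fits its adjusted p lay between 0.0105 and 0.127.

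Col4a1 had 69.3, 44.5, 49.0 and 44.6 CPM in healthy mice, 58.3, 72.0, 80.4 and 84.4 in vehicle mice, and 85.9, 75.5, 84.8 and 106 in I-BET151 mice. Healthy mouse 1 lay among the vehicle mice, and the log2 fold change of 0.51 ± 0.17 had an adjusted p of 0.0947. The tissue-restricted chains Col4a3 to Col4a6, known from kidney and other specialised membranes, were present at low levels, with means per group between 0.0300 and 0.744 CPM per kb, and none was called. Among them Col4a6 had the highest log2 fold change, 0.96 (95% interval 0.16 to 1.76), from 5 to 31 counts per mouse.

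Col15a1, whose product links basement membrane to the fibrils beneath it, had 5.36, 5.56, 6.31 and 7.48 CPM in healthy mice and 9.62, 8.09, 10.6 and 7.21 in vehicle mice. The ranges overlapped through vehicle mouse 4, and the log2 fold change of 0.52 had an adjusted p of 0.235.

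Col6a5 (chr9:105856078-105960643, minus strand) encodes an additional chain of type VI collagen, which forms beaded filaments around cells. It had 0.404, 0.159, 0.233 and 0.230 CPM in healthy mice, 0.889, 0.800, 1.55 and 1.46 in vehicle mice, and 1.93, 0.572, 2.42 and 2.02 in I-BET151 mice. All 8 STAM mice were above the healthy mice. Col6a5 rose 4.47-fold in vehicle (log2 2.16 ± 0.45, adjusted p = 0.0117 in edgeR), from 6 to 19 counts per healthy mouse and 37 to 80 per vehicle mouse. The call was kept in all 12 fits without 1 mouse.

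The other type VI chains were lower in fold. Col6a1 and Col6a2, 2 of the core chains, lie next to each other on chromosome 10. Col6a2 had 8.62, 5.30, 5.87 and 6.79 CPM in healthy mice and 8.05, 11.9, 12.6 and 12.8 in vehicle mice, with a log2 fold change of 0.77 and an adjusted p of 0.0553. Col6a1 had a log2 fold change of 0.64 (adjusted p = 0.134), Col6a3 of 0.45 (adjusted p = 0.495), and Col6a6, the neighbour of Col6a5, of 1.29 ± 0.52 (adjusted p = 0.158). In Col6a1 and Col6a2 it was vehicle mouse 1 that lay within the healthy range.

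Col22a1 (chr15:71795795-72034227, minus strand) encodes a fibril-associated collagen known from tissue junctions. Each of the 4 healthy mice had 2 counts, 0.0426, 0.0530, 0.0581 and 0.0575 CPM, while vehicle mice had 17 to 25 counts, 0.601, 0.419, 0.387 and 0.361 CPM. I-BET151 mice had 7 to 21 counts, 0.216, 0.271, 0.126 and 0.483 CPM. With 84 counts over the vehicle group and 8 over the healthy group, the ratio of rates was 8.37 with an exact 95% counting interval from 4.06 to 20. Col22a1 was called higher in vehicle (adjusted p = 0.00262, edgeR), also in all 12 fits without 1 mouse. Since no healthy mouse reached 10 counts, it entered the test through the STAM mice only. Averaged over the 12 mice, its level per kb was the lowest among the tested chains, while in vehicle mice Col24a1 was lower, at 0.0458 against 0.0480 CPM per kb.

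Col16a1, another fibril-associated chain, had 3.02, 2.33, 3.17 and 2.16 CPM in healthy mice and 3.37, 5.05, 4.26 and 5.37 in vehicle mice. The groups did not overlap, and the log2 fold change of 0.76 ± 0.22 had an adjusted p of 0.0569. Col12a1 and Col23a1, the latter a transmembrane collagen, also did not overlap between the groups, at 0.56 on the log2 scale for Col12a1 (adjusted p = 0.256) and 0.66 for Col23a1 (adjusted p = 0.131). In all, 11 of the 33 chains had every vehicle mouse above every healthy mouse and 0 had every vehicle mouse below, against 14.2% and 12.2% of all genes tested.

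4 chains had a fitted change below 0 in vehicle, and none was called. Col8a2, a network-forming chain known from endothelium and cornea, had the lowest value, -0.77 (95% interval -1.64 to 0.091), from 7 to 39 counts per mouse. Col13a1, a transmembrane collagen, had -0.16 (-0.51 to 0.19), with 15.2, 11.9, 9.65 and 11 CPM in healthy mice and 11.4, 11.4, 9.23 and 10.7 in vehicle mice. Col24a1 and Col18a1 were both at -0.12. Col14a1 had a log2 fold change of 0.33 (-0.048 to 0.71), Col7a1, the anchoring fibril chain, 0.31 (-0.59 to 1.20), Col20a1 0.30 (-0.51 to 1.12) and Col8a1 0.38 (-0.27 to 1.04). Col20a1 shares 79 exon bases with a gene on the same strand, so its counts are uncertain.

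**Figure D4:**
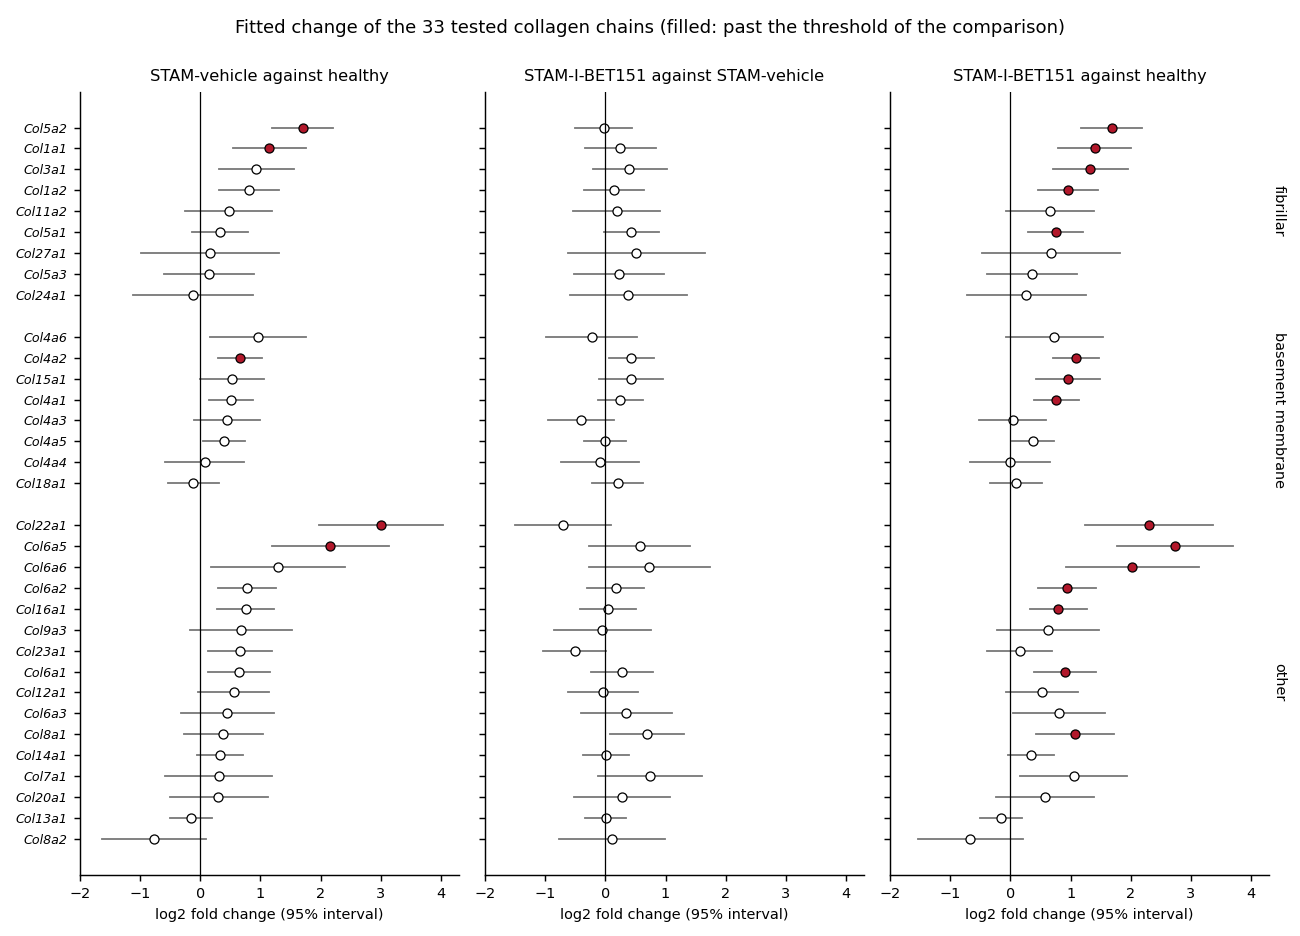
Fitted log2 fold change with its 95% interval for the 33 tested chains, by class, in the 3 comparisons, with filled points past the threshold of the comparison (adjusted p of at most 0.05 for the outer panels, 0.1 for the middle one). Filled points number 5 in vehicle against healthy, 0 in I-BET151 against vehicle and 15 in I-BET151 against healthy, and the outer panels share the healthy mice.

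The number of chains called depended on the mice and terms in the fit. Without I-BET151 mouse 3, which is in neither group but enters the shared estimate of spread, 11 of the 33 chains were called, all higher, and 22.3% of all genes were. DESeq2 without that mouse called 12 chains and 23.4% of genes, and edgeR with the replicate number as a block called 4 and 4.41%. The fit of the vehicle and healthy mice alone called 13 chains and 23.9% of genes. Fits without 1 mouse called between 3 and 11 chains. The share of all genes was computed only for the fit without I-BET151 mouse 3. Col5a2, Col6a5 and Col22a1 were called in every fit without 1 mouse. DESeq2 called 9 chains (9.95% of the genes it tested), all higher, adding Col1a2, Col3a1, Col6a2 and Col16a1 to the 5.

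The lane named in the file names was spread unevenly over the groups. With lane as a covariate, 0 of the 33 chains were called, with 0.220% of all genes, and the median log2 fold change over the chains was 0.30 in place of 0.51. The fibrillar median became -0.11 in place of 0.47. Lane 2 was the only lane that held a vehicle and a healthy mouse. The vehicle change in the fit with lane therefore also drew on I-BET151 mice that shared a lane with either group, mouse 3 among them. In the pair of lane 2, the only fibrillar chains with a log2 difference below 0 were Col11a2 (-0.18) and Col24a1 (-0.0034). There, vehicle mouse 4 was above healthy mouse 1 in 28 of the 33 chains, among them all 5 called, with a median log2 difference of 0.39. For I-BET151 against vehicle, 3 lanes held a mouse of each group, and these mice had the same replicate number. I-BET151 was above vehicle in 19 of the 33 chains in lane 6 (median 0.17), in 30 in lane 7, which held mouse 3 (0.61), and in 14 in lane 2 (-0.11). For I-BET151 against healthy, the counts were 23 in lane 5 (0.27) and 22 in lane 2 (0.45). Shares over all genes were not computed for any of these pairs of mice.

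In the treatment comparison, 0 of the 33 chains were called between I-BET151 and vehicle livers, with 0.1 as the threshold for the adjusted p. Over all genes, 0.351% were called, 0.0951% higher and 0.256% lower. At an unadjusted p under 0.05, edgeR had 2 chains, Col4a2 and Col8a1, both with a positive fold change, against 8.68% of all genes, and DESeq2 had 2 as well. DESeq2 also called 0 at the adjusted threshold, with 1.5% of all genes. The count of chains was 0 as well without mouse 3 in edgeR (2.38% of genes) and DESeq2 (8.32%), in the fit of these 2 groups alone (0.0480%) and with the block (0.0594%). No fit without 1 mouse called any chain. The log2 fold change was above 0 for 24 of the 33 chains, against 53.9% of all genes, and for 12 of the 33 without I-BET151 mouse 3. Its median was 0.21, against 0.024 over all genes, and -0.10 without that mouse.

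Col1a1 had a log2 fold change of 0.25 for I-BET151 against vehicle, with a 95% interval from -0.34 to 0.84, and of -0.10 without mouse 3. Its mean was 14.7 ± 3.02 CPM in vehicle mice, 17.5 ± 7.99 over the 4 I-BET151 mice and 13.6 ± 2.02 over the 3 without mouse 3. The mean of Col5a2 was 13.8 ± 3.22 CPM for vehicle and 13.6 ± 3.54 for I-BET151, a log2 fold change of -0.023 (-0.50 to 0.45). Col3a1 had 40.0, 23.3, 69.3 and 26.6 CPM in I-BET151 mice, with a log2 fold change of 0.40 (-0.21 to 1.02) and 0.0028 without mouse 3. For Col1a2 the I-BET151 mice had 27.8, 22.3, 47.0 and 31.3 CPM, with 0.15 (-0.35 to 0.65).

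These intervals depended on mouse 3. For 31 of the 33 chains the 95% interval excluded a fall of 1 on the log2 scale or more, and for 24 it excluded a rise of 1 or more. The 2 exceptions for a fall were Col22a1, at -0.70 (-1.51 to 0.10), and Col23a1, at -0.51 (-1.03 to 0.016). Without mouse 3 the interval excluded such a fall for 25 of the 33 chains and such a rise for 30. The chains that then reached a fall of 1 were, besides these 2, the fibrillar Col24a1 and Col27a1, the basement membrane Col4a3 and Col4a6, and Col9a3 and Col8a2. For Col1a1 the interval without mouse 3 was -0.55 to 0.34, and for Col3a1 -0.44 to 0.44.

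In each direction 1 chain had groups that did not overlap, near the share found over all genes. Col4a2 was higher in every I-BET151 mouse than in any vehicle mouse, with a log2 fold change of 0.43 (95% interval 0.059 to 0.80), an adjusted p of 0.489 and 0.48 without mouse 3. Col23a1 had 0.432, 0.422, 0.556 and 0.505 CPM in I-BET151 mice against 0.649, 0.762, 0.600 and 0.721 in vehicle mice, the only chain in which every I-BET151 mouse was below every vehicle mouse. Its adjusted p was 0.590. Over all genes, 2.41% had every I-BET151 mouse above and 2.63% below every vehicle mouse, against 1 of 33 chains each. The highest fitted values were 0.74 for Col7a1, 0.73 for Col6a6 and 0.69 for Col8a1, which without mouse 3 were 0.0059, 0.37 and 0.46. The lowest after Col22a1 and Col23a1 was -0.41 for Col4a3 (-0.95 to 0.14), and -0.61 without mouse 3. Col4a3 shares 563 exon bases with a transcript on the opposite strand.

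I-BET151 mouse 3 was the highest of all 12 mice in 21 of the 33 chains and the highest of its group in 28. Its sum over the fibrillar chains was 422 CPM, against 173, 147 and 151 in the other I-BET151 mice and 162 to 194 in vehicle mice. Much of this lay in Col5a3 and Col27a1, a fibrillar chain known from cartilage. Col27a1 had 17.9, 22.7, 104 and 12.5 CPM in I-BET151 mice, 38.6, 34.0, 14.6 and 23.1 in vehicle mice and 20.6, 25.7, 23.3 and 28.9 in healthy mice. Col5a3 had 38.5, 43.1, 118 and 33.9 CPM in I-BET151 mice. For both, the other 3 I-BET151 mice were lower than 3 of the 4 vehicle mice, and without mouse 3 the log2 fold changes against vehicle were -0.63 for Col27a1 (adjusted p = 0.270) and -0.37 for Col5a3 (adjusted p = 0.373).

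Hepatocyte marker mRNA was low in the same library. The sum of Alb, Apoa1, Ttr, Cps1 and Cyp3a11 was 17962 CPM in mouse 3, against 65138 to 79088 in the other I-BET151 mice, and its Col18a1, at 963 CPM, was the lowest of its group. The part of these features in its collagen values was not tested.

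**Figure D5:**
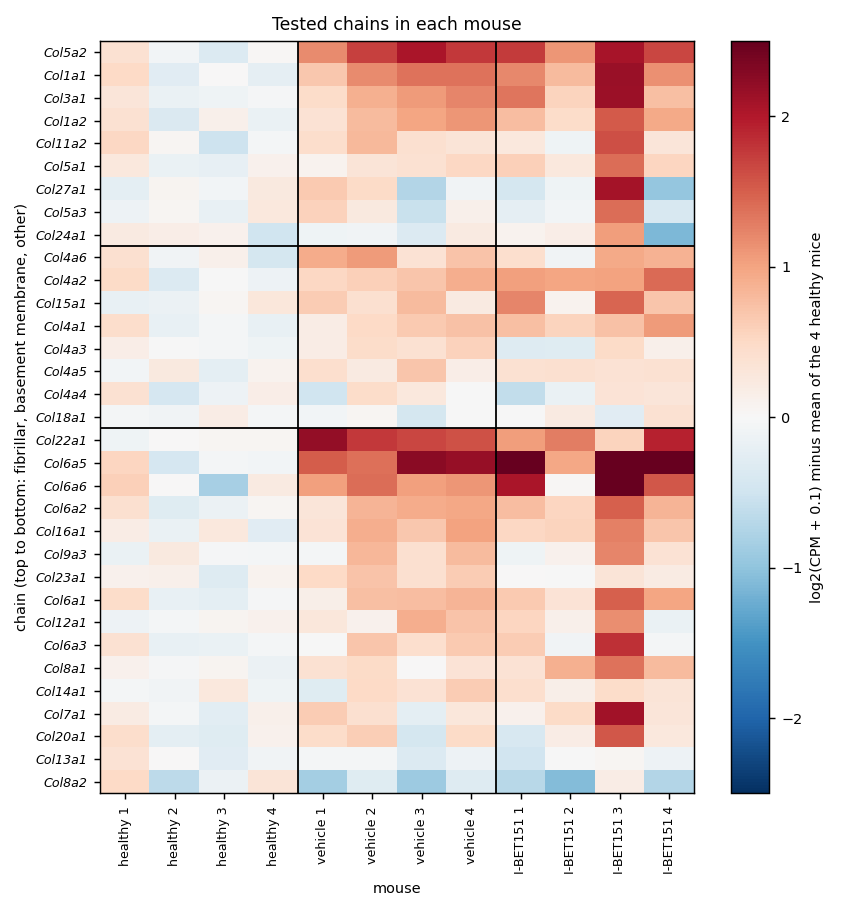
Level of the 33 tested chains in each mouse as log2(CPM + 0.1) minus the mean of the 4 healthy mice, with values past the ends of the colour scale drawn in the end colour. Most chains are above the healthy mean in vehicle and I-BET151 mice, and the column of I-BET151 mouse 3 is the deepest, also for chains such as Col27a1, Col5a3, Col7a1, Col11a2 and Col20a1 in which the other 3 I-BET151 mice are lower.

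Compared with healthy livers, 15 of the 33 tested chains were higher in I-BET151 livers and 0 were lower, with the threshold at 0.05. All genes had 9.88% called higher and 5.25% lower, against 45.5% of the chains called higher. The log2 fold change was above 0 for 30 of the 33, against 55.0% of all genes, and 12 chains had every I-BET151 mouse above every healthy mouse and 0 every mouse below, against 10.9% and 8.85%. This comparison shares the healthy mice with the disease comparison and the I-BET151 mice with the treatment comparison, so it is not independent of either. The chains were Col1a1, Col1a2, Col3a1, Col5a1 and Col5a2 of the 9 fibrillar, Col4a1, Col4a2 and Col15a1 of the 8 basement membrane, and Col6a1, Col6a2, Col6a5, Col6a6, Col16a1, Col22a1 and Col8a1 of the 16 other chains. The same 15 were called without mouse 3, with 20.4% of all genes. Col6a5, Col6a6 and Col22a1 passed the count filter through STAM mice. With at least 10 counts required in every mouse they were not tested, and 12 chains were called. The share of all genes called with that filter was not computed. With lane as a covariate 0 were called (0.505% of genes), the fit of these 2 groups alone called 8 (7.88%) and the block 10 (9.35%).

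In size, Col6a5 rose 6.65-fold (log2 2.73 ± 0.45, adjusted p = 0.00208), Col5a2 3.20-fold (1.68 ± 0.23, adjusted p = 0.000796) and Col1a1 2.63-fold (1.40 ± 0.28, adjusted p = 0.00648). Col3a1 rose 2.52-fold and Col4a2 2.13-fold. For Col22a1 the ratio of rates was 5.01, with a counting interval from 2.35 to 12.3. Col8a1, a network-forming chain, had 0.362, 0.318, 0.349 and 0.288 CPM in healthy mice and 0.450, 0.693, 1.00 and 0.643 in I-BET151 mice and rose 2.11-fold (adjusted p = 0.0283). Without mouse 3, Col1a1 had a log2 fold change of 1.02 and Col3a1 of 0.91.

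DESeq2 ran without the count filter of edgeR, but its own filtering left many genes with few counts without an adjusted p. Of the 11 chains not tested in edgeR, only Col28a1, Col17a1 and Col25a1 had one for I-BET151 against healthy livers. DESeq2 called Col28a1 and Col25a1 lower and did not call Col17a1 (adjusted p = 0.822), with 18% of the genes it tested called. Col28a1 had 7 to 9 counts per healthy mouse, 3 to 6 per vehicle mouse and 0 to 4 per I-BET151 mouse, with an adjusted p of 0.0101. Col25a1, a transmembrane collagen, had 6 to 12, 4 to 13 and 0 to 5 counts, with an adjusted p of 0.0450. Without mouse 3, DESeq2 kept the call of Col28a1 (adjusted p = 0.0106) and lost that of Col25a1 (adjusted p = 0.0781). Both are near the limit of detection at this depth.

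Col4a3bp, the non-collagen gene that the rule takes in, went the other way. It had 39.9, 57.8, 49.2 and 49.5 CPM in healthy mice, 37.2, 32.9, 33.6 and 31.6 in vehicle mice, and 36.2, 29.0, 24.8 and 31.9 in I-BET151 mice. Every STAM mouse was below every healthy mouse. Its log2 fold change was -0.54 ± 0.14 in vehicle (adjusted p = 0.0347, kept in 6 of the 12 fits without 1 mouse) and -0.69 ± 0.14 in I-BET151 against healthy (adjusted p = 0.00673).

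Genes that act on collagen were taken from 5 lists of processing, partners and receptors. Of the 17 genes that modify and fold the chains inside the cell, 16 were tested, and 1 was called higher in vehicle, beside 5.72% of all genes. Fkbp10, a chaperone of procollagen, rose with a log2 fold change of 0.93 ± 0.25 (adjusted p = 0.0388). Serpinh1, the collagen chaperone HSP47, had 0.69 (adjusted p = 0.0657), and Plod2, a lysyl hydroxylase, 0.91 (adjusted p = 0.0552). Against healthy livers, I-BET151 livers had 4 of the 16 higher, beside 9.88% of all genes, namely Fkbp10, Serpinh1, Plod2 and P3h3.

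Of 13 genes for cleavage of propeptides and cross-linking outside the cell, 11 were tested and 2 were higher in vehicle, beside the same 5.72%. Loxl2, a lysyl oxidase that cross-links collagen, rose by 1.16 ± 0.22 on the log2 scale (adjusted p = 0.00668), and Pcolce, which helps the removal of a propeptide, by 0.89 ± 0.20 (adjusted p = 0.0155). Lox itself had 0.92 in vehicle against healthy (adjusted p = 0.133) and -0.71 in I-BET151 against vehicle (adjusted p = 0.590). In I-BET151 against healthy livers 5 were higher, beside 9.88% of all genes, Pcolce, Adamts2, Loxl1, Loxl2 and Loxl4.

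Among 11 partners of the fibrils, 1 was higher and 1 lower in vehicle, beside 5.72% and 1.38% of all genes. The proteoglycan gene Lum rose (0.87 ± 0.22, adjusted p = 0.0345) and Ogn, another small proteoglycan gene, fell (-0.94 ± 0.23, adjusted p = 0.0259) in vehicle. Dcn and Bgn had 0.15 each and were not called. Against healthy livers, I-BET151 livers had Lum and Sparc higher and Ogn lower, beside 9.88% of all genes higher and 5.25% lower. Among 16 basement membrane partners, also 1 was higher and 1 lower. The laminin chain gene Lama5 rose by 1.1 ± 0.27 (adjusted p = 0.0264) and Lamb3 fell by 1.35 on the log2 scale (adjusted p = 0.0215) in vehicle. The I-BET151 livers had Lama5 and Lamc1 higher and Lamb3 lower than healthy livers, beside the same 9.88% and 5.25%.

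Of 10 collagen receptor genes, 9 were tested and 3 were higher in vehicle, beside 5.72% of all genes. Ddr1, a receptor tyrosine kinase for collagen, rose by 1.5 ± 0.29 on the log2 scale (adjusted p = 0.00768), the integrin chain gene Itga11 by 1.23 ± 0.34 (adjusted p = 0.0440) and Lair1, an inhibitory receptor of leukocytes, by 1.09 ± 0.28 (adjusted p = 0.0343). Itgb1, the shared integrin chain, had -0.24 (adjusted p = 0.573). The I-BET151 livers had these 3 and Mrc2, which takes up collagen for breakdown, higher than healthy livers, beside 9.88% of all genes. In the treatment comparison 0 genes of these 5 lists were called by edgeR, beside 0.351% of all genes. The fold change furthest from 0 was that of Itga2, at 0.95 (adjusted p = 0.838).

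Cell type markers moved beside the chains, and their part in the chain values was not tested. The calls of markers in vehicle stand beside 5.72% of all genes called higher and 1.38% lower. The 5 hepatocyte markers summed to between 99722 and 117168 CPM in healthy mice and between 46533 and 68913 in vehicle mice, and 1 of them, Cyp3a11, was called lower. The 6 stellate cell markers overlapped, at 109 to 121 and 93.0 to 150.2 CPM, with Rgs5 called higher. Only 3 of the 6 had a log2 fold change above 0, with a median of 0.095. Lrat was at -0.46, Reln at -0.41 and Hand2 at -0.039, none of them called. In I-BET151 against healthy livers, Rgs5 and Pdgfrb were called higher and Reln lower, beside 9.88% and 5.25% of all genes. The 5 markers of myofibroblasts and smooth muscle had 8.14 to 21.5 CPM in healthy, 20.6 to 30.7 in vehicle and 12.1 to 41.0 in I-BET151 mice, with 0 called. The 4 portal fibroblast markers had 35.1 to 58.1, 58.9 to 80.6 and 54.7 to 88.0 CPM, with Fbln2 called higher in vehicle.

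The 4 macrophage markers summed to 123 to 179.7 CPM in healthy and 204 to 345 in vehicle mice. Of these, 3 were called higher, Adgre1, Clec4f and Cd68, beside 5.72% of all genes. The 5 T cell markers had 1.55 to 4.60 CPM in healthy, 4.27 to 6.30 in vehicle and 1.70 to 2.42 in I-BET151 mice. Cd8a was called higher in vehicle than in healthy, beside the same 5.72%. Cd4 was called lower in the treatment comparison, beside 0.256% of all genes. Endothelial, cholangiocyte and mesothelial marker sums overlapped between healthy and vehicle mice, with 0 called. Of the 5 chondrocyte markers, 1 had no count in any mouse and only Sox5 was tested, which was lower in vehicle.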

How the data were processed

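Liver RNA of 12 mice was sequenced as paired 101-base reads from a stranded mRNA kit. The authors mapped reads to mm10 with STAR 2.5.1b and deposited unnormalized whole-number counts of reads per gene. Their methods name htseq-count, the file names name featureCounts, and neither the strand setting nor the annotation release is given in the sources used here. Symbols, positions and exon lengths came from GENCODE M21, which held 47224 of the 47729 gene identifiers.

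Counts were analysed with edgeR 4.0.16 and limma 3.58.1 in R 4.3.3. All 3 groups entered a single fit (TMM, filterByExpr with a minimum count of 10, 16823 genes, quasi-likelihood test, Benjamini-Hochberg adjustment over all genes). The threshold on adjusted p was 0.05, and 0.1 in the treatment comparison. Standard errors were derived from the log2 fold change and its F statistic, and 95% intervals are not adjusted for the number of genes. DESeq2 1.42.0 was an alternative, as were RLE normalization, 2 other count filters, a fit limited to 2 groups, a block for the replicate number, lane as a term, each mouse left out, and a threshold of 0.1. DESeq2 without I-BET151 mouse 3 and levels per longest transcript were added after the data were seen. On simulated counts of vehicle against healthy, with 200 changed among 16679 genes, the fit recovered 100.0% of changes of log2 2 and 80.0% of changes of log2 1, and 6.25% of its calls were false. The changes were placed only in well-counted genes, at levels above those of Col22a1 and Col6a5. The simulated spread followed the fitted trend, with no library like that of I-BET151 mouse 3 and no difference between lanes. These shares therefore do not hold for chains with few counts or for such differences between libraries.

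Members, classes and gene lists were chosen with earlier results of these data known. The rule for named genes took Col1a1, Col4a3bp, chains past a threshold, the 3 highest and 3 lowest chains of each comparison, the 3 most abundant per class, partner chains of these, and listed genes past a threshold or with the furthest fold change. Other genes were named after their values were seen. Replicate numbers were not taken to pair mice, and the 18 pairs within groups differed beyond sampling noise (chi-square per degree of freedom 30.5 to 620.0). A description of the chains from their protein sequences was not run.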

Additional observations from a re-analysis of the deposited data

Results flagged for a closer look

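In 126 groups of 4 values screened (the tested genes and the summed levels in each group), 10 had a mouse whose gap to the nearest other mouse, as a share of the range of the group, was over Dixon's 95% critical value for 4 values. Chance alone gives about 1 such group in 20, and these values share libraries.

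5 of the 10 were I-BET151 mouse 3, each time the highest. The share of the range was 0.903 for Col7a1 (6.01 CPM against 1.42 to 1.87), 0.852 for Col11a2 (8.95 against 2.65 to 3.58), 0.888 for Col27a1 (104 against 12.5 to 22.7), 0.890 for Col5a3 (118 against 33.9 to 43.1) and 0.907 for the sum over the fibrillar chains (422 against 147 to 173).

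3 were healthy mouse 3. It was the highest for Col18a1 (0.858, 1337 CPM against 1097 to 1131) and for Col14a1 (0.865, 51.0 against 39.6 to 41.1), and the lowest for Col23a1 (0.893, 0.320 against 0.460 to 0.477). I-BET151 mouse 4 was the highest of its group for Col4a2 (0.931, 104 CPM against 76.9 to 78.7), and vehicle mouse 1 the lowest for Col6a1 (0.835, 13.9 CPM against 21.3 to 22.8).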

How the results depend on the processing

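For vehicle against healthy, 5 chains were called, and the count was 8 without a count filter, 3 with at least 10 counts in every mouse, 13 in the fit of those 2 groups (23.9% of all genes), 0 with lane as a covariate, 9 in DESeq2, 12 in DESeq2 without I-BET151 mouse 3, and 10 at a threshold of 0.1. It was 3 to 11 when each mouse was left out, 11 without I-BET151 mouse 3, 8 without healthy mouse 1, vehicle mouse 1 or I-BET151 mouse 2, and 3 without any other single healthy or vehicle mouse. For I-BET151 against healthy, 15 became 8 in the fit of 2 groups, 0 with lane, and 7 to 15 when each mouse was left out (7 without healthy mouse 2, 9 without healthy mouse 3 or 4). No share over all genes was computed for the 2 other count filters, the threshold of 0.1, or single mice left out except I-BET151 mouse 3. No alternative called a chain for I-BET151 against vehicle. None of the 5 chains for vehicle against healthy or the 15 for I-BET151 against healthy changed direction. Col15a1 and Col6a6, called for vehicle against healthy only in alternatives, had -0.057 and -0.20 with lane.

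Mice with the same replicate number were no more alike than others (mean correlation of deviations -0.0927 over 12 pairs against 0.0306 over 36), so the numbers were not taken to pair mice, although vehicle and I-BET151 mice 1, 3 and 4 share lanes by number and block and lane are then partly the same. With the replicate block, 4 chains were called for vehicle against healthy (Col4a2 lost), 10 between I-BET151 and healthy livers and 0 in the treatment comparison. The block gave 4 genes of processing, partners and receptors in place of 10 for vehicle against healthy, and 10 in place of 19 for I-BET151 against healthy. Over all genes, the block called 4.41% in place of 7.10% and 9.35% in place of 15.1%.

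For those lists (63 genes tested with all mice), vehicle against healthy gave 21 in the fit of 2 groups (23.9% of all genes), 0 with lane (0.220%), 25 in DESeq2 without I-BET151 mouse 3 (23.4%), and 2 to 18 when each mouse was left out (2 without healthy mouse 2, 3 without vehicle mouse 3, 4 without healthy mouse 3 or 4, 5 without vehicle mouse 4, 6 without vehicle mouse 2, 18 without I-BET151 mouse 3). I-BET151 against vehicle gave 3 in DESeq2 without mouse 3, which called 8.32% of all genes. I-BET151 against healthy gave 12 in the fit of 2 groups (7.88% of all genes) and 0 with lane (0.505%). It gave 9 to 25 when each mouse was left out (10 without healthy mouse 2, 9 without healthy mouse 3, 11 without healthy mouse 4).

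The median log2 fold change of vehicle against healthy became, with lane, 0.30 over all chains, -0.11 over fibrillar, 0.31 over basement membrane and 0.31 over other chains, and the fibrillar median was 0.67 where every mouse had 10 counts or more and between 0.31 and 0.68 with single mice omitted. In the treatment comparison the median over all chains was between -0.10 and 0.32 with single mice omitted, the lowest without mouse 3, and -0.10 in DESeq2 without it. Between I-BET151 and healthy livers it was 0.42 with lane, 0.37 to 0.86 when each mouse was left out, the lowest without mouse 3, and 0.38 in DESeq2 without it, 0.37 with lane over basement membrane chains, and over other chains 0.28 (without mouse 3) to 0.93 when each mouse was left out and 0.29 in DESeq2 without mouse 3. The causes were not tested. Counts of a few reads limit Col22a1, Col6a5, Col6a6, Col8a1 and the 11 untested chains.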
